A study of Mus musculus with 4 samples.

Results

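The genes described here were 10 genes of the piRNA pathway (Piwil1, Piwil2, Tdrd1, Tdrd5, Mov10l1, Mael, Ddx4, Henmt1, Asz1 and Pld6), taken by symbol from the 53677 symbols of the deposited count files. All 10 symbols were present and had counts in each of the 4 libraries. The libraries came from oocytes of mice taken at the germinal vesicle (GV) stage, in which meiosis is halted in prophase, and the females had received 7.5 IU of the gonadotropin PMSG 48 h before collection. Oocytes with a knockdown of Ell3, an RNA polymerase II elongation factor gene, made up the Ell3 KD group (2 libraries), and control oocytes made up the Ctrl group (2 libraries). Each library pooled 5 oocytes, and its polyadenylated RNA was amplified by Smart-seq2, so that mRNAs of pathway proteins were measured and piRNAs themselves were not. The sources used here did not give strain, age, the way the knockdown was made or whether a group's libraries came from different animals. The p-values therefore measure the spread between these 4 libraries only, and that spread may be technical.

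piRNAs are small RNAs of the germ line that guide PIWI proteins, a branch of the Argonaute family, to transcripts of retrotransposons and cut or silence them. Long precursors are handed over by an RNA helicase, cut at the mitochondrial surface, loaded into PIWI proteins and methylated at their ends, in granules called nuage that are held together by Tudor-domain proteins. In mice the pathway is best known from spermatogenesis, which fails without it. Mouse oocytes also contain piRNAs, but they rely on endogenous small interfering RNAs made by Dicer as well.

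Of the 10 genes, 3 rose (Henmt1, Mael and Tdrd1) and 3 fell (Tdrd5, Piwil1 and Ddx4) in Ell3 KD oocytes, and 4 were not called (Piwil2, Mov10l1, Asz1 and Pld6). Called means an adjusted p under 0.05 in edgeR's quasi-likelihood test across 17879 genes. The same test called 42.9% of all genes tested, 21.1% as higher and 21.8% as lower, so the share among these 10 has to be read against a broad background of small differences. The median log2 fold change of the 10 genes was 0.00 (5.22e-05), beside -0.0024 over all genes tested, and their median absolute log2 fold change was 0.18, beside 0.25. The CPM values (counts scaled to a total of 1e+06 and by TMM factors) of the 2 groups did not overlap for 9 of the 10 genes, Piwil2 being the exception, and for 70.7% of all genes tested. Summed over the 10 genes, the level was 810 and 836.3 CPM in the Ell3 KD libraries, against 829.6 and 845.7 CPM in the Ctrl libraries, so the groups overlapped in the total while single genes moved apart. CPM values are relative to the RNA of a library, and fewer cells of a type and less RNA per cell cannot be told apart in them.

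The libraries held 89632815 and 65722415 counts in Ell3 KD, against 45131278 and 48669267 in Ctrl, so that depth did not overlap between the groups. With each library thinned to the smallest total, Tdrd1 was no longer called and the other 5 calls remained. The targeted gene Ell3 had 255 and 181 counts in Ell3 KD and 371 and 483 counts in Ctrl (log2 fold change -1.66 ± 0.14 SE, edgeR adjusted p = 6.04e-10). Its exon length is shared to 65.6% with Serinc4 on the same strand, which had 11 and 11 counts in Ell3 KD and 8 and 5 in Ctrl. All 10 oocyte markers examined were present, with Zp3 at 7403 ± 53.6 CPM in Ell3 KD and 7425 ± 20.4 CPM in Ctrl (SD, n = 2 libraries per group, here and for each CPM value below). Of these 10, Oosp1 was called higher (log2 fold change 0.46, edgeR adjusted p = 8.52e-11). Nobox (-0.27), Nlrp5 (-0.23), Gdf9 (-0.20) and Zp1 (-0.12) were called lower (highest edgeR adjusted p = 6.21e-04), and 5 were not called, Zp3 among them. The 14 markers of cumulus and granulosa cells summed to 51.6 and 53.9 CPM in Ell3 KD and 59.4 and 56.5 CPM in Ctrl. Among those below the low-count filter, Amh, Amhr2 and Foxl2 had 3 to 9 counts in Ell3 KD and 0 in Ctrl. Has2 went the other way, with 2 and 2 counts in Ell3 KD and 7 and 3 in Ctrl. Of the 8 that passed the low-count filter, Inha was called higher (log2 fold change 1.16, edgeR adjusted p = 3.63e-04), Nr5a2 was called lower (-0.24, edgeR adjusted p = 0.00391) and 6 were not called. Among these 6 were Fshr (-0.85, edgeR adjusted p = 0.063) and Cyp11a1 (-0.45, edgeR adjusted p = 0.0701). For both, the Ell3 KD libraries lay below the Ctrl libraries, while the groups of the others overlapped. The 8 theca and stroma markers summed to 3.04 and 2.97 CPM in Ell3 KD and 2.65 and 2.67 CPM in Ctrl. Of the 3 tested, Dcn was called higher (log2 fold change 1.12, edgeR adjusted p = 0.00122). Acta2 (-0.70, edgeR adjusted p = 0.0543) and Lhcgr (0.59, edgeR adjusted p = 0.574) were not called. Of those not tested, Col3a1 had 0 and 0 counts in Ell3 KD and 3 and 3 in Ctrl. Cyp17a1 had 0 and 0 in Ell3 KD and 1 and 1 in Ctrl. The 8 blood and vessel markers summed to 48.7 and 51.3 CPM in Ell3 KD and 65.9 and 63.9 CPM in Ctrl, nearly all of it Pecam1, and the 4 globin genes had 0 counts in every library. All 3 of these markers that were tested were called lower, with log2 fold changes of -0.35 for Pecam1 (edgeR adjusted p = 3.01e-06), -1.16 for Cd68 (edgeR adjusted p = 2.18e-04) and -2.18 for Alas2 (edgeR adjusted p = 0.0203). The value of Alas2 rests on few reads, with 6 and 3 counts in Ell3 KD and 8 and 18 in Ctrl. The part of these marker levels in the differences of the piRNA genes was not tested.

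**Figure D1:**
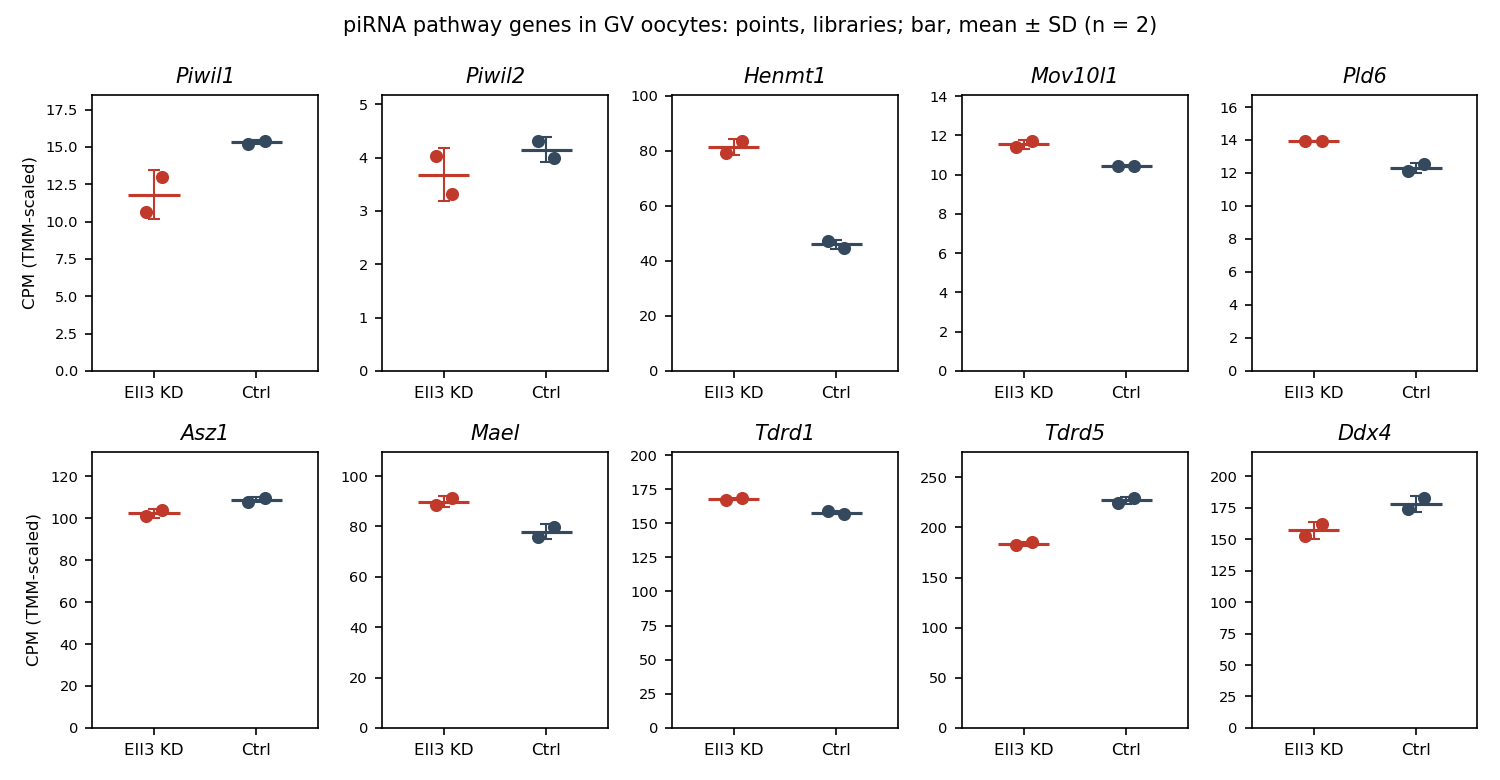
Level of each of the 10 piRNA pathway genes in CPM scaled by TMM factors (vertical axes, each starting at 0), with Ell3 KD left of Ctrl; points are libraries, bars are the mean and whiskers the SD of 2 libraries. Henmt1 lies at 79.3 and 83.6 CPM in Ell3 KD oocytes, against 47.2 and 44.8 CPM in Ctrl. This is the largest fold difference of the 10 genes. Tdrd5 lies at 182.1 and 185.1 CPM in Ell3 KD and at 224.3 and 229.3 CPM in Ctrl. Its gap is wider in CPM but smaller as a fold difference.

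Henmt1 encodes the methyltransferase that adds a methyl group to the last nucleotide of piRNAs and so protects them from trimming and decay. It had 7024 and 5407 counts in Ell3 KD and 2159 and 2209 counts in Ctrl, which is 79.3 and 83.6 CPM in Ell3 KD oocytes, against 47.2 and 44.8 CPM in Ctrl. Both Ell3 KD libraries lay far above both Ctrl libraries. The level was 81.5 ± 3.07 CPM in Ell3 KD and 46.0 ± 1.76 CPM in Ctrl, 1.77-fold higher (95% interval 1.65 to 1.90; log2 fold change 0.82 ± 0.05 SE, edgeR adjusted p = 5.03e-13). Its log2 fold change exceeded those of 92.8% of the genes tested. Henmt1 was the one gene of the 10 that was still called when a coefficient of variation of 0.2 between libraries was assumed in place of the estimated 0.0421 (edgeR adjusted p = 0.0441). The gene lies at chr3:108939873-108960774 on the plus strand of GRCm38, and 14.7% of its exon length, at its start, overlaps Gm9857 on the opposite strand. Gm9857 itself had 0 and 2 counts in Ell3 KD and 0 and 0 in Ctrl, so few reads were credited to it.

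Averaged over the 4 libraries, Piwil1 exceeded 56.0% and Piwil2 33.0% of the genes tested in CPM per kilobase of exon. Piwil1, the gene of MIWI, had 945 and 838 counts in Ell3 KD and 696 and 760 in Ctrl, or 10.7 and 13.0 CPM in Ell3 KD oocytes, against 15.2 and 15.4 CPM in Ctrl. The Ell3 KD libraries were both lower than the Ctrl libraries but stood apart from each other. Piwil1 was 1.30-fold lower (log2 fold change -0.38 ± 0.09 SE, edgeR adjusted p = 0.00173). Without Ell3 KD replicate 1 the log2 fold change was -0.24 and not called (edgeR adjusted p = 0.0973), and without Ell3 KD replicate 2 it was -0.52, so the size of this fall depended on which Ell3 KD library was used. Piwil2, the gene of MILI, had 357 and 215 counts in Ell3 KD and 197 and 197 in Ctrl, which is 4.03 and 3.33 CPM in Ell3 KD and 4.31 and 3.99 CPM in Ctrl. The groups overlapped, and the test did not call it (log2 fold change -0.17, 95% interval -0.49 to 0.16, edgeR adjusted p = 0.419). That interval reaches from 1.12-fold higher to 0.71 of the Ctrl level, so a fall of the size of that of Piwil1 lies within it. The ratio of Piwil1 to Piwil2 counts, which no scaling of libraries can change, was 2.65 and 3.90 in Ell3 KD and 3.53 and 3.86 in Ctrl, with Ell3 KD replicate 1 below the other 3 libraries.

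The factors that feed and cut piRNA precursors showed small differences that the test did not call. Mov10l1, the germ-line RNA helicase that binds precursors, was at 11.4 and 11.7 CPM in Ell3 KD and 10.4 and 10.5 CPM in Ctrl (log2 fold change 0.14, 95% interval -0.05 to 0.34, edgeR adjusted p = 0.219). Pld6, the endonuclease on the mitochondrial outer membrane known as Zucchini in flies, was at 13.9 CPM in both Ell3 KD libraries and at 12.1 and 12.5 CPM in Ctrl (log2 fold change 0.18, 95% interval 0.0026 to 0.35, edgeR adjusted p = 0.0947). Both Ell3 KD libraries were above both Ctrl libraries for each of these genes. Mov10l1 counts were 0.817 and 0.841 of the Pld6 counts in Ell3 KD and 0.861 and 0.837 of them in Ctrl, so this pair kept overlapping proportions. Asz1, the mitochondria-bound nuage protein also called GASZ, was at 100.9 and 103.8 CPM in Ell3 KD and 108.0 and 109.7 CPM in Ctrl (log2 fold change -0.09, 95% interval -0.17 to -0.0081, edgeR adjusted p = 0.0699). The Ell3 KD libraries were the lower ones by a few percent. For Pld6 and Asz1 the unadjusted p was 0.047 and 0.0323, and after adjustment over all genes tested they missed the threshold.

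**Figure D2:**
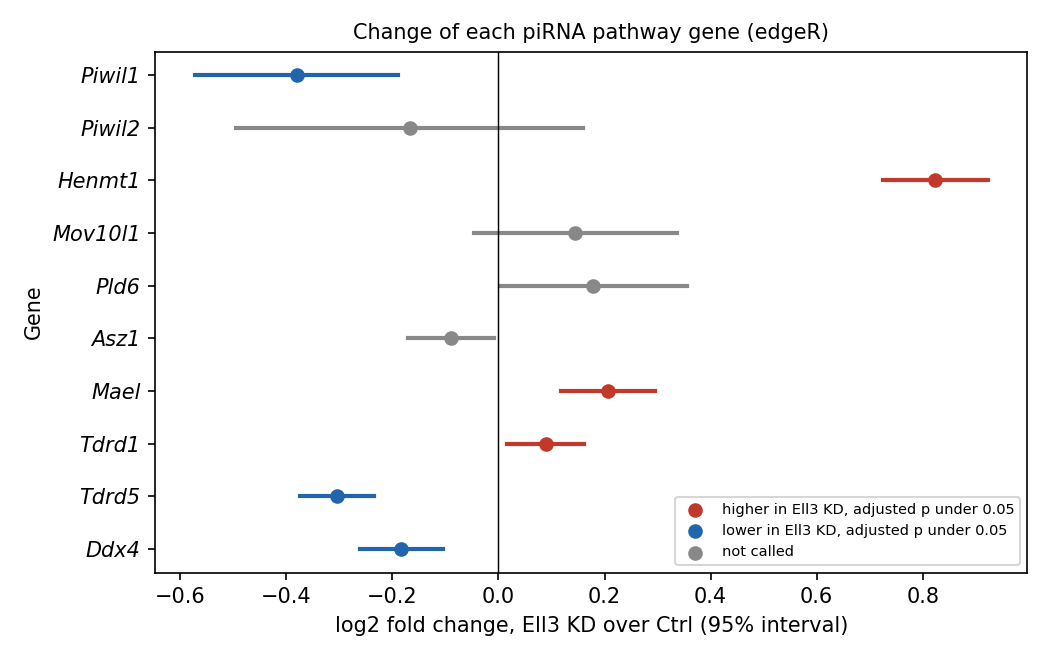
Log2 fold change of each gene, Ell3 KD over Ctrl (horizontal axis), with its 95% interval from the edgeR fit; red marks genes called higher, blue genes called lower and grey genes not called. Henmt1 at 0.82 stands apart, and the other 9 genes lie between -0.38 and 0.21.

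The genes of nuage structure and of piRNA amplification went both ways. Tdrd5, a Tudor-domain protein needed in mouse testis for nuage and for precursor processing, had 16130 and 11970 counts in Ell3 KD and 10251 and 11318 in Ctrl. This is 182.1 and 185.1 CPM in Ell3 KD oocytes, against 224.3 and 229.3 CPM in Ctrl. Each group was tight, and the groups did not overlap. Tdrd5 fell 1.24-fold, to 183.6 ± 2.17 CPM in Ell3 KD oocytes, against 226.8 ± 3.52 CPM in Ctrl (log2 fold change -0.31 ± 0.03 SE, edgeR adjusted p = 7.97e-08). A lower log2 fold change than this was found for 22.6% of the genes tested. Only 2.54% of its exon length overlaps another annotated gene, the antisense RNA 4930518J20Rik, which had 28 and 17 counts in Ell3 KD and 4 and 10 in Ctrl. That RNA was not called (log2 fold change 0.98, 95% interval -0.324 to 2.285, edgeR adjusted p = 0.222). Ddx4, the DEAD-box helicase known as Vasa in flies and as MVH in mice, was at 152.2 and 162.0 CPM in Ell3 KD and 173.7 and 182.8 CPM in Ctrl. Both Ell3 KD libraries were below both Ctrl libraries, and the fall was 1.14-fold (log2 fold change -0.18 ± 0.04 SE, edgeR adjusted p = 3.99e-04).

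Mael and Tdrd1 moved the opposite way. Mael, an HMG-box protein of nuage whose loss in mice releases the LINE retrotransposon L1, was at 88.4 and 91.3 CPM in Ell3 KD and 75.8 and 79.9 CPM in Ctrl. Its Ell3 KD libraries were above both Ctrl libraries, 1.15-fold on average (log2 fold change 0.21 ± 0.04 SE, edgeR adjusted p = 3.95e-04). Tdrd1, a Tudor-domain protein that binds methylated arginines of MILI, was at 167.0 and 168.5 CPM in Ell3 KD and 158.6 and 156.8 CPM in Ctrl. The groups did not overlap, but the rise was 1.06-fold (log2 fold change 0.09 ± 0.04 SE, edgeR adjusted p = 0.0432). Tdrd1 was no longer called with DESeq2 (adjusted p = 0.0663) or after leaving out any of the 4 libraries, with edgeR adjusted p between 0.0671 and 0.184.

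Within a library, the ratio of counts of 2 genes is free of the scaling between libraries. Henmt1 had 0.435 and 0.452 counts per Tdrd5 count in Ell3 KD, against 0.211 and 0.195 in Ctrl. These genes were already known to have moved in opposite directions, so their ratio is a description only. Mael had 0.486 and 0.493 counts per Tdrd5 count in Ell3 KD and 0.338 and 0.349 in Ctrl, and Tdrd1 had 0.917 and 0.910 in Ell3 KD and 0.707 and 0.684 in Ctrl. The ratios with Tdrd5 did not overlap between the groups, whereas those of Piwil1 to Piwil2 and of Mov10l1 to Pld6 did. Ddx4 had 0.912 and 0.961 counts per Tdrd1 count in Ell3 KD, against 1.10 and 1.17 in Ctrl, also with no overlap. Every pair without overlap joined a gene called higher with a gene called lower, so its lack of overlap follows from those differences. The pairs that overlapped joined genes with log2 fold changes of the same sign. All these ratios are therefore descriptions only.

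Levels of different genes were compared per kilobase of annotated exon (CPM per kb). In Ell3 KD the order was Ddx4 (52.1 ± 2.29 CPM per kb), Mael (51.9 ± 1.17), Asz1 (36.2 ± 0.729), Tdrd1 (30.8 ± 0.196), Henmt1 (30.5 ± 1.15), Tdrd5 (26.5 ± 0.312), Pld6 (7.93 ± 0.0020), Mov10l1 (2.76 ± 0.0565), Piwil1 (2.71 ± 0.372) and Piwil2 (0.696 ± 0.0942). There, Ddx4 and Mael differed by less than their spread, as did Tdrd1 and Henmt1, and Mov10l1 and Piwil1. In Ctrl the order was Ddx4 (59.1 ± 2.14 CPM per kb), Mael (44.9 ± 1.68), Asz1 (38.5 ± 0.434), Tdrd5 (32.7 ± 0.507), Tdrd1 (29.0 ± 0.228), Henmt1 (17.2 ± 0.659), Pld6 (7.01 ± 0.169), Piwil1 (3.51 ± 0.0271), Mov10l1 (2.50 ± 0.0098) and Piwil2 (0.785 ± 0.0428). Neighbours in the Ctrl order differed by more than their spread. By exon length, Henmt1 thus lay beside Tdrd1 in Ell3 KD and well below it in Ctrl. Averaged over the 4 libraries, Ddx4 exceeded 93.1% of the genes tested in CPM per kb. The order depends on the length used. With the longest transcript as length, Tdrd5 was at 48.9 CPM per kb in Ell3 KD and 60.3 in Ctrl, where it lay within the spread of Ddx4, and Henmt1 was at 40.8 in Ell3 KD and 23.0 in Ctrl. Tdrd1 was then at 32.3 in Ell3 KD and 30.4 in Ctrl, so Henmt1 lay above it in Ell3 KD and below it in Ctrl. Piwil1, Piwil2 and Mov10l1 were the 3 lowest of the 10 genes with either length.

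**Figure D3:**
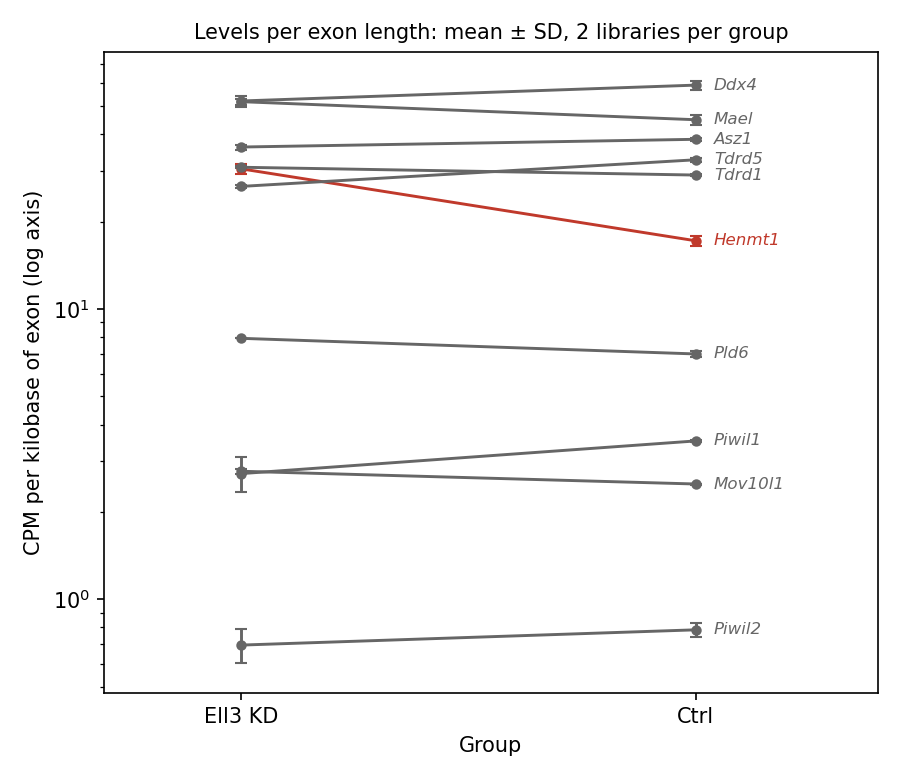
Level per exon length of each gene (vertical axis, CPM per kilobase of exon, log axis) in Ell3 KD and Ctrl, as mean ± SD of 2 libraries; each line joins the values of 1 gene. Henmt1 (red) lies at 30.5 in Ell3 KD, beside Tdrd1, and at 17.2 in Ctrl, below it.

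Because the genes went both ways, their promoters are shown for comparison. RefSeq windows on GRCm38.p6 that run from 250 bases before to 50 bases after a start site, 300 bases in all, were at hand for 9 of the 10 genes (12 windows), Piwil2 being the gene with none. The sequences below, 5′ to 3′ on the strand of the gene, belong to Henmt1 (chr3:108940307-108940606, plus strand), Tdrd5 (chr1:156303299-156303598, minus), Piwil1 (chr5:128735996-128736295, plus), Ddx4 (chr13:112652261-112652560, minus) and Mael (chr1:166238695-166238994, minus), the genes with the clearest changes. Capitals mark CACGTG, the palindromic core of the E-box, and AACGG or its reverse complement CCGTT, a core of MYB sites.
Henmt1: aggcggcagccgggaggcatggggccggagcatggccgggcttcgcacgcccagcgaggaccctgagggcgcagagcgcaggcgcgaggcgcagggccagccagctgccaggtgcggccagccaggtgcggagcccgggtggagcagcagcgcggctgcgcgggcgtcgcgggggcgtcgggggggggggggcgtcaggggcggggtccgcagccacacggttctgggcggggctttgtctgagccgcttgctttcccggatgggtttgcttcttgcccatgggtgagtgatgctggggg
Tdrd5: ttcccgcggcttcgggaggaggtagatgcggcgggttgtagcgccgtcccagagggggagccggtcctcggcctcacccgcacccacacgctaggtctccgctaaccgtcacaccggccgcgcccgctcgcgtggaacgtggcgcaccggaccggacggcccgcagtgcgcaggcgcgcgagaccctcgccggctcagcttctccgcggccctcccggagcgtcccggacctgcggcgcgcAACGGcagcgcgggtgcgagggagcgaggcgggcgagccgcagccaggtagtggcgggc
Piwil1: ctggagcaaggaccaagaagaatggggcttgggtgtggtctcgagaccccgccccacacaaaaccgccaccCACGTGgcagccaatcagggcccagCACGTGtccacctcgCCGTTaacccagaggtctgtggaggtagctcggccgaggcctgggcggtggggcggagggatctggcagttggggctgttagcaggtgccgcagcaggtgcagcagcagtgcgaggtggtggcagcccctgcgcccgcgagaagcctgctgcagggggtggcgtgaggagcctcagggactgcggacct
Ddx4: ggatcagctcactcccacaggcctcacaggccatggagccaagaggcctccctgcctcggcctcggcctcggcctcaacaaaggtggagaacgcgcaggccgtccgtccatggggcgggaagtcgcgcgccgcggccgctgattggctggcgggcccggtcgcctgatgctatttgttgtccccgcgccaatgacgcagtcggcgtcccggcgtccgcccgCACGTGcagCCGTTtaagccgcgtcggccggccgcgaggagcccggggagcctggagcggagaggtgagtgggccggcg
Mael: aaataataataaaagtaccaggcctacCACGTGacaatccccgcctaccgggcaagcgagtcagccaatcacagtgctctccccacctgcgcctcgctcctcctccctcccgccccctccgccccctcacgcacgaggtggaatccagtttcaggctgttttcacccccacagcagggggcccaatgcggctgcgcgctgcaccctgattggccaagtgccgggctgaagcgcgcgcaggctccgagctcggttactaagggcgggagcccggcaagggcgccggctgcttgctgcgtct

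CACGTG was chosen as a motif after these promoters had been read. It occurred in windows of 6 of the 9 genes (Piwil1, Tdrd1, Mov10l1, Mael, Ddx4 and Pld6) and, over all genes of the table, in those of 8.09% of 27025. Piwil1 held it 179 and 154 bases before its start site, Mael 223 bases before and Ddx4 29 bases before. AACGG or CCGTT occurred in windows of 5 of the 9 genes (Piwil1, Tdrd5, Mov10l1, Ddx4 and Pld6), beside 19.6% of all genes, and in Ddx4 it lay 20 bases before the start site, next to the CACGTG and not overlapping it. For Pld6 this match lay in a window inside the annotated gene, and the window at the annotated start of Pld6 held none. TAATTG, the letters of the NOBOX element of oocyte genes, occurred in none of the 9 and in 9.22% of all genes. GGGCGG or its reverse complement CCGCCC, made of G and C only, occurred in windows of 7 of the 9 genes, beside 38.2% of all genes. The windows of the 9 genes were rich in G and C, with a median of 64.7% against 52.7% over all 32851 windows, and the part of this composition in the motif counts was not tested. Genes with CACGTG included some that fell (Piwil1 and Ddx4), some that rose (Mael and Tdrd1) and some that were not called (Mov10l1 and Pld6). Henmt1 and Tdrd5, which moved most clearly in opposite directions, both lacked it. A match describes letters in these windows and says nothing of a factor bound there.

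**Figure D4:**
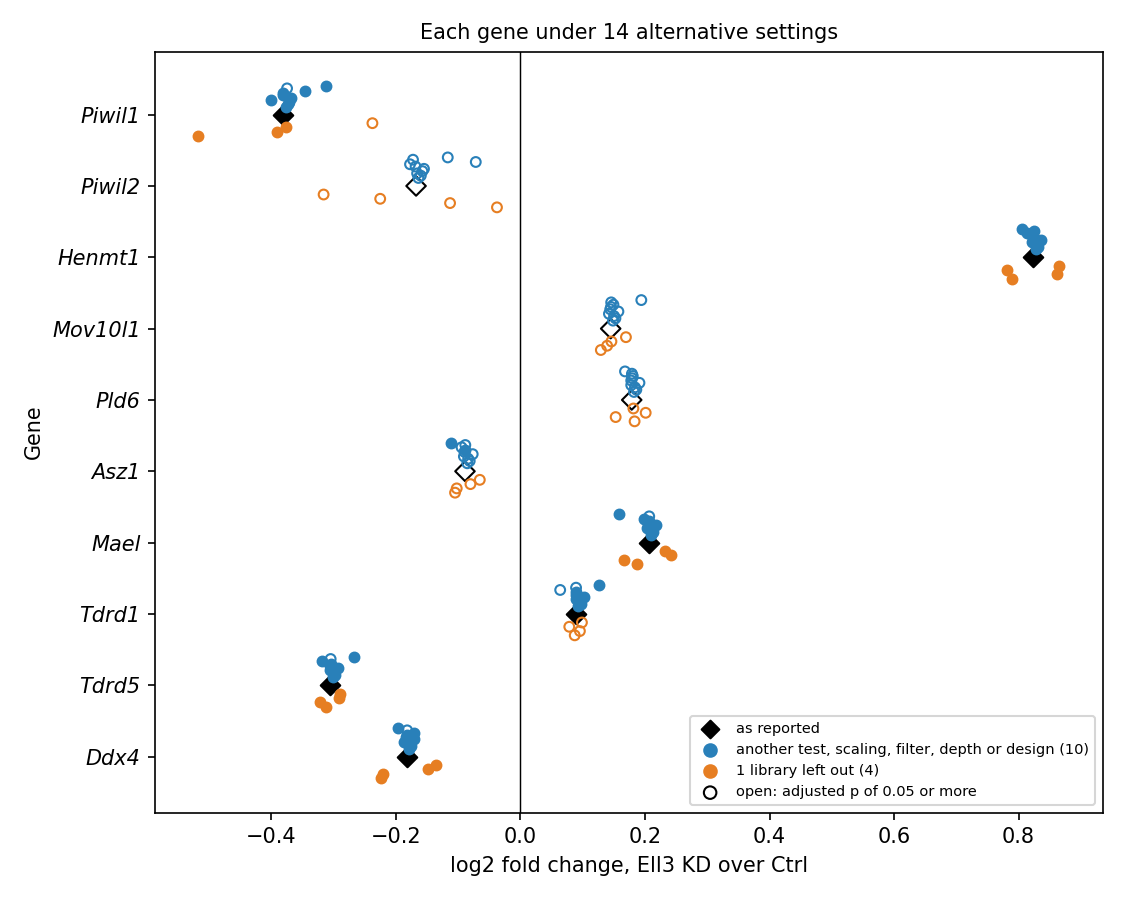
Log2 fold change of each gene, Ell3 KD over Ctrl (horizontal axis), as reported (diamonds), under 10 other tests, scalings, filters, depths or designs (blue) and with each of the 4 libraries left out (orange); open symbols have an adjusted p of 0.05 or more. Points of a gene keep to their side of 0, Henmt1 is called in all 14 settings, and Piwil1 spreads from -0.52 to -0.24.

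Other factors of the piRNA pathway went both ways. Of 24 such genes listed, 21 passed the low-count filter, and 6 of these rose and 5 fell, with a median log2 fold change of 0.0021. The share called was 52.4%, beside 42.9% of all genes tested, and the median absolute log2 fold change was 0.14, beside 0.25. Without Ell3 KD replicate 2, 4 were called higher and 1 lower, and without Ctrl replicate 1, 5 were called higher and 3 lower. Gtsf1, a small zinc finger protein that helps PIWI proteins cut their targets, was the most abundant at 1585 ± 28.1 CPM in Ell3 KD and 1439 ± 6.08 CPM in Ctrl (log2 fold change 0.14 ± 0.03 SE, edgeR adjusted p = 1.36e-04). After removal of a trend on length and GC content of transcripts, Gtsf1 was at 0.03 and not called (edgeR adjusted p = 0.469). Rises were also called for the Tudor-domain genes Rnf17 (0.23), Tdrkh (0.14), Tdrd12 (0.12) and Stk31 (0.13), and for the PIWI co-chaperone gene Fkbp6 (0.33 ± 0.07 SE, edgeR adjusted p = 3.72e-04). Tdrd12 was not called without Ell3 KD replicate 2 (edgeR adjusted p = 0.0507). The genes that fell, and Stk31, were singled out after their values were seen.

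Among the falls were Prmt5, the arginine methyltransferase whose marks on PIWI proteins Tudor domains bind (8.41 ± 0.153 CPM in Ell3 KD and 11.1 ± 0.291 CPM in Ctrl; log2 fold change -0.40 ± 0.10 SE, edgeR adjusted p = 0.00217), and Gpat2 (-0.49), a mitochondrial protein of piRNA production. The helicase gene Tdrd9 (-0.21) and the genes of nuclear silencing Spocd1 (-0.18) and Dnmt3l (-0.10) fell as well. Of these 5, Prmt5 was the one called after leaving out each library in turn. Without Ell3 KD replicate 2, the edgeR adjusted p was 0.0983 for Gpat2, 0.341 for Tdrd9, 0.136 for Spocd1 and 0.193 for Dnmt3l. Without Ctrl replicate 1 it was 0.0864 for Gpat2, 0.300 for Tdrd9 and 0.0977 for Dnmt3l, and without Ell3 KD replicate 1 it was 0.141 for Dnmt3l. Mybl1, whose product switches on piRNA precursors in mouse testis, was at 11.1 ± 0.756 CPM in Ell3 KD and 11.1 ± 0.946 CPM in Ctrl (log2 fold change 0.0021, edgeR adjusted p = 0.989) and was chosen after its value was seen. Piwil4, the third PIWI gene of the mouse, had 13 and 8 counts in Ell3 KD and 6 and 30 in Ctrl and did not pass the filter.

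The other small RNA pathway of the oocyte, that of endogenous siRNAs and miRNAs, had 6 genes that rose and 3 that fell among 13 tested, with a median log2 fold change of 0.23. The share called was 69.2%, beside 42.9% of all genes tested, and the median absolute log2 fold change was 0.41, beside 0.25. Dicer1, which cuts both kinds of precursor, rose to 500.8 ± 0.938 CPM in Ell3 KD oocytes, against 437.0 ± 0.864 CPM in Ctrl (log2 fold change 0.20 ± 0.03 SE, edgeR adjusted p = 7.67e-06). The silencing scaffold genes Tnrc6b (0.41 ± 0.04 SE, edgeR adjusted p = 4.55e-09) and Tnrc6c (0.37 ± 0.06 SE, edgeR adjusted p = 3.24e-05) rose, and the exporter gene Xpo5 fell (-0.44 ± 0.08 SE, edgeR adjusted p = 5.82e-05). The slicer Argonaute gene Ago2, at 182.6 ± 4.95 CPM in Ell3 KD and 172.5 ± 5.29 CPM in Ctrl, was not called (log2 fold change 0.08, edgeR adjusted p = 0.0736). It was called with the length and GC trend removed (0.15, edgeR adjusted p = 0.00211), without the low-count filter (edgeR adjusted p = 0.0375), with the replicate number as a block (edgeR adjusted p = 0.0273) and without Ctrl replicate 2 (edgeR adjusted p = 0.0293). The other genes that fell were Dgcr8 (-0.42) and Ago4 (-0.53), singled out after their values were seen. Ago4 rested on single libraries, since without Ctrl replicate 1 its log2 fold change was -0.21 (edgeR adjusted p = 0.481) and without Ell3 KD replicate 2 it was -0.41 (edgeR adjusted p = 0.158).

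Of 16 genes that silence retrotransposons by other routes, 15 were tested, 1 rose and 8 fell, and the median log2 fold change was -0.12. Over all genes tested, 21.1% were called higher and 21.8% lower. The median absolute log2 fold change was 0.25 over all genes tested and 0.14 for these 15. Without Ell3 KD replicate 2, 5 of these genes were called lower. Trim28, the corepressor that brings histone methylation to retrotransposons, was the gene that rose, to 78.2 ± 1.97 CPM in Ell3 KD oocytes, against 58.1 ± 1.20 CPM in Ctrl (log2 fold change 0.43 ± 0.05 SE, edgeR adjusted p = 3.00e-08). Marf1, an oocyte RNase-domain protein whose loss in mice raises retrotransposon transcripts, fell to 435.4 ± 4.48 CPM in Ell3 KD oocytes, against 551.8 ± 9.27 CPM in Ctrl (log2 fold change -0.34 ± 0.03 SE, edgeR adjusted p = 1.48e-09). Falls were also called for the DNA methyltransferase genes Dnmt3a (-0.26 ± 0.03 SE, edgeR adjusted p = 5.18e-07) and Dnmt1 (-0.09 ± 0.03 SE, edgeR adjusted p = 0.0182) and for Uhrf1 (-0.17 ± 0.03 SE, edgeR adjusted p = 2.98e-05), whose product brings Dnmt1 to DNA. Dnmt3b, singled out after its value was seen, was not called (log2 fold change 0.10, edgeR adjusted p = 0.533). With the length and GC trend removed, Dnmt3a was at -0.16 and Uhrf1 at -0.10, both still called (edgeR adjusted p = 2.87e-04 and 0.00523). Dnmt1 lost its call and its sign with the length and GC trend removed (0.01, edgeR adjusted p = 0.763), and it was not called without Ell3 KD replicate 1 (edgeR adjusted p = 0.12), Ell3 KD replicate 2 (edgeR adjusted p = 0.0976) or Ctrl replicate 2 (edgeR adjusted p = 0.0668).

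**Figure D5:**
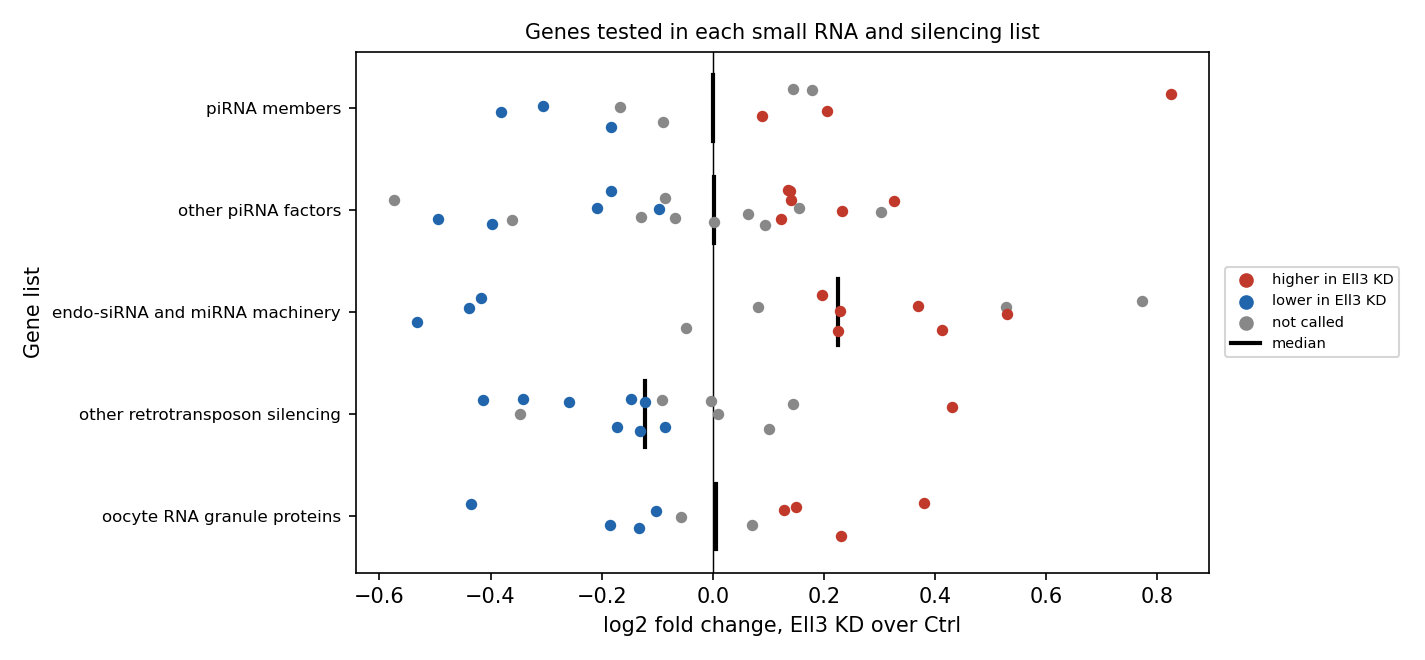
Log2 fold changes, Ell3 KD over Ctrl (horizontal axis), of the genes tested in each list (rows); each point is a gene, red called higher, blue called lower, grey not called, and black bars are medians. Henmt1 is the rightmost point among the 10 piRNA genes, whose median is 0.00, and the medians of the siRNA and miRNA genes and of the other retrotransposon silencing genes are 0.23 and -0.12.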

How the data were processed

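Oocyte RNA-seq counts of 2 Ell3 KD and 2 Ctrl libraries were analysed, grouped by sample title. The deposited values are raw gene-level counts. The submitters' processing notes name HISAT2 2.2.1.0, featureCounts, FastQC 0.11.5 and build mm10. The sources used here do not give annotation, strand setting or treatment of multi-mapping reads, so reads in overlapping exons cannot be assigned with certainty.

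Tests used edgeR 4.0.16 in R 4.3.3 (filterByExpr, TMM, glmQLFit, glmQLFTest, two-sided, no covariates) on 17879 genes of all 4 libraries, with Benjamini-Hochberg adjustment over these genes. SE was obtained by dividing the log2 fold change by the root of F, and intervals are 95% intervals with 26.3 degrees of freedom. TMM factors lay between 0.984 and 1.015. A count of 0 allowed up to 0.0665 CPM in the shallowest library, with 3 counts as the limit; this covers counting error only. The fits, including DESeq2 1.42.0 and limma-voom (limma 3.58.1) as alternatives, were tested on simulated data.

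The members and lists were chosen with earlier results of these data known, including that Henmt1 rose and Tdrd5 fell, so these give no independent evidence. All 10 members are named; from each other list, the 2 genes of highest mean CPM and up to 4 called genes of smallest p are named, and any other is said to be chosen after its value was seen. Exon lengths, overlaps and transcript GC came from GENCODE M21 on GRCm38, the assembly of mm10, where 96.8% of genes tested matched 1 gene by symbol. Promoter windows came from RefSeq (GRCm38.p6). The longest transcript as gene length and the motifs were choices made after seeing the data.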

Additional observations from a re-analysis of the deposited data

How the results depend on the processing

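Across 14 alternatives, the 140 log2 fold changes of the 10 genes kept their direction, and 126 also kept their side of the threshold, while 12 lost the call and 2 gained it. Asz1 gained it with the length and GC trend removed (edgeR adjusted p = 0.0259) and with the replicate block (edgeR adjusted p = 0.0412). Henmt1 ranged from 0.78 to 0.87 and Tdrd5 from -0.32 to -0.27. With an assumed coefficient of variation of 0.2 (edgeR likelihood ratio test), 1 of the 10 genes was called higher and 0 lower, also 1 and 0 at an unadjusted p under 0.05, against 3 and 3 in the test reported and 2 and 3 with DESeq2; over all genes the counts were 861 and 1103, against 3770 and 3906. That setting assumes a wider spread than these libraries showed. It called none of the genes of the 4 other lists. The other 13 alternatives called 4 to 6 of the other piRNA factors as higher and 1 to 5 as lower, and 5 to 9 of the other retrotransposon silencing genes as lower. Leaving out 1 library each gave 2 genes called higher and 2 to 3 called lower of the 10, and 2797 to 3482 higher and 2922 to 3439 lower of all genes. The 2 replicate numbers are shared between groups, but deviations of same-numbered libraries from their group means correlated at r = 0.0191 over 17879 genes. No pairing showed in this value. It cannot settle whether same-numbered libraries shared an animal or a batch, since noise of genes with low counts also enters it. With the replicate block, 3 of the 10 genes were called higher and 4 lower, and 3894 and 3987 of all genes. Of 37 other genes followed through the alternatives, Dnmt1 reversed with the length and GC trend removed (0.01251). Mybl1, Dnmt3b, Stk31 and the cell type markers were not among these genes, so their direction under the alternatives was not examined.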

Other observations

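The 10 genes for proteins of oocyte RNA granules, which store and mask maternal mRNAs, went both ways, with 4 higher, 4 lower and a median log2 fold change of 0.0066 in Ell3 KD. The share called was 80%, beside 42.9% of all genes tested. Patl2, a repressor of maternal mRNA translation, fell to 160.0 ± 1.90 CPM in Ell3 KD oocytes, against 216.3 ± 0.416 CPM in Ctrl (log2 fold change -0.44 ± 0.03 SE, edgeR adjusted p = 2.37e-10). Zar1l rose by 0.38 ± 0.04 and Ybx2, the germ-cell Y-box protein, by 0.23 ± 0.04, while the translational regulator gene Cpeb1 fell by 0.13 ± 0.03 on the log2 scale (SE; highest edgeR adjusted p = 4.10e-04). Zar1, at 995.0 ± 9.64 CPM in Ell3 KD and 1036 ± 5.05 CPM in Ctrl, was not called (edgeR adjusted p = 0.0890).

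Profiles over the 4 libraries were compared with those of Henmt1 and Tdrd5, as log2 CPM centred on each gene's mean, among 8885 named genes at 5 CPM or more. Those nearest to Henmt1 were Pla2g4d, Atg10 and Ptov1, which differed from it by at most 0.0429, 0.0445 and 0.0446 in any library. Those nearest to Tdrd5 were Cep57, Cdc25b and Malat1, within 0.0056, 0.0081 and 0.0116. With 4 libraries such likeness rests mainly on the difference between the groups.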
